A study of Mus musculus with 7 samples.

Results

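Unconventional myosins and the nonmuscle contractility machinery were followed through 36 genes of a mouse amplicon panel, out of 23930 genes on it, in contralateral mammary tissue. The 36 genes are the 25 whose symbol starts with Myo and a digit and 11 of 14 genes chosen by name, namely Myh9, Myh10, Myh14, Myl12a, Rhob, Rhoc, Rock1, Rock2, Ppp1r12a, Cttn and Tagln2. The choice goes by symbol and name and was made with earlier results of these data known. The other 3 named genes, Rhoa, Myl6 and Myl12b, were not analysed here. RNA came from 3 Blg-Cre;Brca1f/f;Trp53+/- mice, called control mice (mice 1, 2 and 3), and from 4 animals of genotype Blg-Cre;HMMRTg/Tg;Brca1f/f;Trp53+/-, called HMMRTg/Tg mice (mice 7, 8, 9 and 11). Both genotypes therefore shared the Cre, the floxed Brca1 alleles and Trp53 heterozygosity, and differed by the transgene. The labels call the animals matched for age, without an age for each mouse, and the study describes them as parous and of mixed background. Blg-Cre acts in lactating mammary epithelium, where it removes a stop cassette in front of a human HMMR cDNA placed in Rosa26. The tissue came from a gland without the tumor while another gland carried one, and whole paraffin sections were extracted, so that the other cells of the gland and any attached tissue were read with the epithelium.

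Each value is a number of reads per 1000000 reads of the library (RPM), from 1 amplicon per gene, and total reads were 5532357 to 9345910 per mouse (exact permutation test between genotypes, two-sided, p = 0.971). A gene without a read could still have had up to 3 reads (0.321 to 0.542 RPM, depending on the library), a limit for counting error only. All 12 luminal epithelium markers had reads in every mouse, and their summed level was 2638 to 3167 RPM in the controls against 3068 to 4400 RPM in the others. Epcam made up much of this sum, with a mean of 1225 RPM in the controls and 2112 RPM in the others. The genotypes were compared in limma on the log2(RPM + 1) scale, on which the change of sparsely read genes comes out too small. This was done for all 13080 genes that reached 1 RPM in 3 or more mice, and p-values were adjusted over all of them. In this bulk tissue, fewer cells of a type and less RNA per cell cannot be told apart. Amplicons differ in efficiency, so RPM values are compared between mice and not between genes.

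Myosins are motors that pull on actin filaments with energy from ATP. Nonmuscle myosin II assembles into bipolar filaments that contract the cell cortex, shape epithelial sheets and close the cleavage furrow, and it is switched on by phosphorylation of its regulatory light chain downstream of small GTPases. Unconventional myosins work mostly without such filaments and carry vesicles, anchor membranes to actin, or build filopodia and microvilli.

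Myo18b was lower in HMMRTg/Tg tissue (limma adjusted p = 0.0191), and limma separated no other tested gene of the group at an adjusted p. The gene passed the filter on low values only through the control mice, and its limma call was lost in 7 of the 17 alternatives that tested it, among them no filter on low values (adjusted p = 0.0585), a pseudocount of 10 (0.160) and 5 of 7 runs with 1 mouse left out. The summed skeletal muscle markers moved with it, from 1868 to 9876 RPM in the controls against 22.4 to 118 RPM in the others. The promoters of Tagln2 and Myh10, the genes with a sequence at hand among those read higher in every HMMRTg/Tg mouse than in every control mouse, are shown from 250 bases before to 50 bases after the start, on the plus strand, from RefSeq on GRCm38.p6. They span chr1:172499996-172500295 and chr11:68691665-68691964, and capitals mark the GC box, searched as GGGCGG on either strand.
Tagln2: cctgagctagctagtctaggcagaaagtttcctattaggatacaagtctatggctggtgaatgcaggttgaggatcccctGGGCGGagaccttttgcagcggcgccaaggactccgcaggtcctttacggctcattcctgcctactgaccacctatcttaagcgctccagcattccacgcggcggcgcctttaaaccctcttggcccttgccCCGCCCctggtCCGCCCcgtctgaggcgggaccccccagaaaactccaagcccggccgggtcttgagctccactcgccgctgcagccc
Myh10: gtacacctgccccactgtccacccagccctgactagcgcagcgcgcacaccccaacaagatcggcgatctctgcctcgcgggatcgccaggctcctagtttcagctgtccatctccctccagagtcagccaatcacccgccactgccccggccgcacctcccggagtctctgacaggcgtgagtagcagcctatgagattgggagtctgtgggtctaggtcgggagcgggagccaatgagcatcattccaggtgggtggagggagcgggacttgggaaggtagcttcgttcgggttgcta
Tagln2 holds 3 GC boxes and Myh10 has 0, and their GC content is 61.3% and 62.7%. Of 35 promoters of 29 of the 36 genes, 24 hold a GC box (68.6%), against 35.7% of all 32851 promoters in the table. The latter were not matched for expression or GC content, so whether the share is particular to these genes was not tested. The CArG box, a motif of serum response factor, was searched on either strand and occurs in 1.63% of all promoters and in 1 of the 35, that of Myo1e. A match describes the sequence alone, since binding and accessibility were not measured.

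Of the 36 genes, 27 passed the filter on low values and were tested. The other 9 were Myo1a, Myo1f, Myo1h, Myo3a, Myo3b, Myo7b, Myo15, Myo15b and Myo16, several of which are known from gut, hair cells, leukocytes or brain. Myo3a and Myo15b had no read in any mouse, and none of the 9 had more than 19 reads over all 7 mice. Myo16 had the highest value among them, with 0.542, 0 and 0 RPM in control mice 1, 2 and 3 and 0.640, 0.214, 1.15 and 0 RPM in HMMRTg/Tg mice 7, 8, 9 and 11. Myo3b was read at 0, 0.221 and 0.702 RPM in control mice and at 0.128, 0, 0 and 0 RPM in HMMRTg/Tg mice. These values lie at or near the limit of detection in most mice, and no comparison was made for the 9 genes.

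Of the 27 tested genes, limma called 0 higher and 1 lower in HMMRTg/Tg mice at an adjusted p under 0.05, beside 0.0382% of all tested genes called higher and 0.367% called lower (0.405% in either direction). The gene called lower was Myo18b. At an unadjusted p under 0.05, 4 genes were higher (Tagln2, Myo5b, Cttn and Myo10) and 1 was lower, against 6.49% of all genes higher and 3.22% lower. On the recovered reads, edgeR and DESeq2 each gave 0 higher and 1 lower at an adjusted p and 4 higher and 1 lower at an unadjusted p. Over all genes with an adjusted p, edgeR called 0.0306% higher and 0.497% lower, and DESeq2 called 0.617% higher and 1.46% lower. The values of 4 genes lay above all 3 control mice in all 4 HMMRTg/Tg mice (Tagln2, Myo5b, Cttn and Myh10), and those of Myo18b and Myo18a lay below. Over all genes tested, such a lack of overlap was seen for 6.52% upward and 3.34% downward.

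A positive log2 fold change was found for 22 of 27 genes (81.5%) and for 8009 of 13080 genes over the panel (61.2%), with medians of 0.24 and 0.11. This count depended on the scaling and was 17 of 27 with TMM factors, 16 with quantile normalization, 17 in edgeR and 16 in DESeq2. The median of all genes was 0.02 under TMM scaling, 0.01 for edgeR and -0.01 for DESeq2, and the median of the 27 genes was then 0.14, 0.08 and 0.06. With those scalings, genes higher and lower at an unadjusted p were also nearer to balance over the panel (TMM factors gave 4.63% and 4.56%, edgeR 4.44% and 5.13%, DESeq2 4.56% and 5.97%). The 95% interval held 0 for 22 of the 27 genes and lay within 1 log2 unit of 0 for 14 genes.

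**Figure D1:**
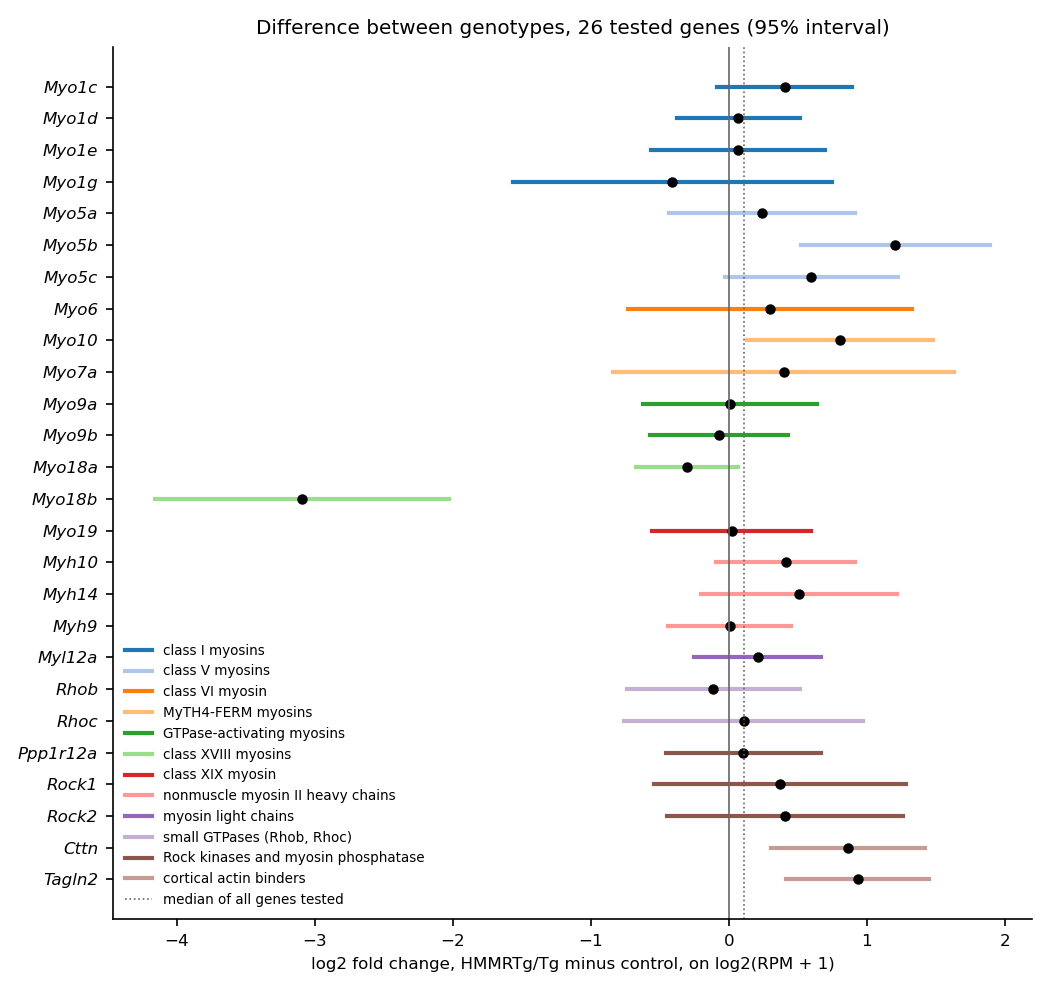
Log2 fold change (HMMRTg/Tg minus control, on log2(RPM + 1)) of 26 of the 27 tested genes, as points with 95% intervals from limma, coloured by role, with a solid line at 0 and a dotted line at the median of all genes tested, 0.11. Myo18b stands apart at -3.10, the intervals of Tagln2, Cttn, Myo5b and Myo10 lie above 0, and those of the other 21 genes drawn hold 0.

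Myo18b, a myosin of class XVIII known from striated muscle and needed there for sarcomere assembly, was the gene called lower. It was read at 11.2, 17.0 and 3.04 RPM in control mice 1, 2 and 3 and at 0.128, 0.214, 0 and 0.167 RPM in HMMRTg/Tg mice 7, 8, 9 and 11. All 3 control mice carried the transcript and the 4 HMMRTg/Tg mice were under the level of 3 reads, without overlap. On the log2 scale the difference was -3.10 (standard error, SE, 0.48, limma adjusted p = 0.0191). On the reads themselves, 242 reads in control mice faced 4 in HMMRTg/Tg mice, a rate 80.9 times higher in control mice (exact 95% interval 31.2 to 299 for counting error only). The gene lies at chr5:112688876-112896461 of GRCm38.p6.

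Transcripts of skeletal muscle moved in the same mice. In control mice 1, 2 and 3 the 12 muscle markers summed to 3635, 9876 and 1868 RPM, against 25.5, 118, 65.2 and 22.4 RPM in HMMRTg/Tg mice 7, 8, 9 and 11, with p = 0.0571 in a two-sided exact permutation test, the smallest value that 3 mice against 4 allow. limma called 11 of the 12 markers lower, beside 0.367% of all tested genes, and 5 of the 12 were at 0 in at least 1 mouse. The markers were chosen with earlier results of these data known, so neither this count nor the permutation p is independent evidence. Among control mice, the order of Myo18b (mouse 2, then 1, then 3) was the order of the muscle markers. Per 1000 muscle marker reads, Myo18b had 3.08, 1.72 and 1.63 reads in control mice 1, 2 and 3, and 1.93 over the group (exact 95% interval 1.69 to 2.19). The HMMRTg/Tg group had 2.06 per 1000 muscle marker reads (exact 95% interval 0.561 to 5.28), from 4 reads. These intervals cover counting error only. Control mouse 1, with an interval of 2.36 to 3.95, lay above that of its group, so that the spread between mice exceeded counting error. With 4 reads in the HMMRTg/Tg group, the genotypes could not be compared in Myo18b reads per muscle read.

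The call of Myo18b depended on which mice entered. The adjusted p from limma was above the threshold without control mouse 1 (0.107) and without HMMRTg/Tg mouse 7 (0.0792), mouse 8 (0.0594), mouse 9 (0.0509) or mouse 11 (0.0782). It was 0.160 with a pseudocount of 10 and 0.0585 with no filter on low values, against 0.0114 in edgeR and 1.04e-08 in DESeq2. With the muscle markers left out of the library totals it was 0.0255.

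**Figure D2:**
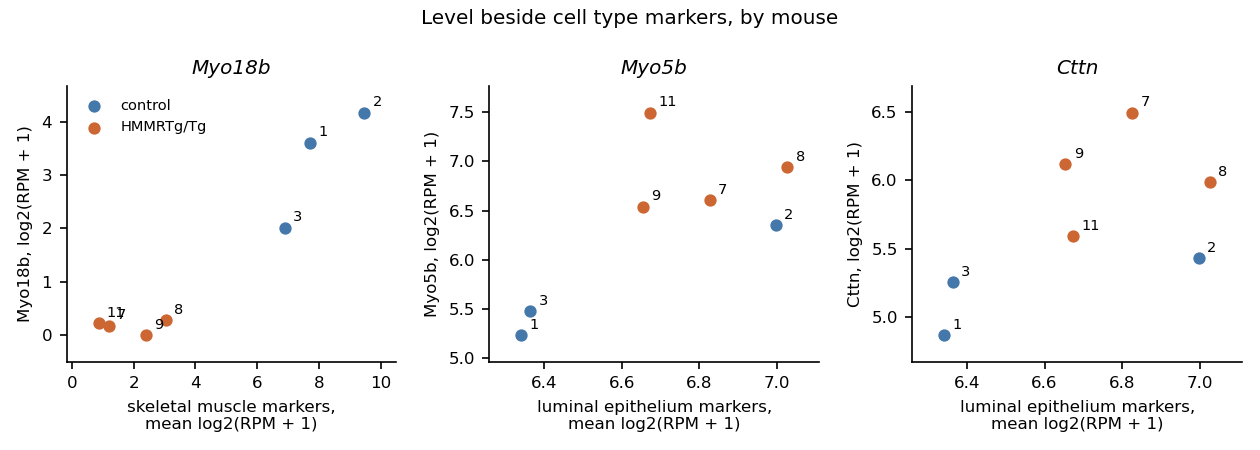
Level of Myo18b, Myo5b and Cttn (log2(RPM + 1), vertical axes) against the mean log2(RPM + 1) of skeletal muscle or luminal epithelium markers (horizontal axes) in each numbered mouse, with control mice in blue and HMMRTg/Tg mice in orange. Myo18b is high in the 3 mice with high muscle markers. The mean luminal level overlaps between the genotypes, with control mouse 2 (7.00) inside the HMMRTg/Tg range of 6.65 to 7.03. The part of luminal cells in Myo5b and Cttn was not tested.

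Myo18a, the other member of class XVIII, has a PDZ domain and is known to link the Golgi membrane to actin. From immunoprecipitation in HeLa cells, the study proposes HMMR complexes that hold the human proteins MYO18A and MYH10. It reports that HMMR overexpression in HeLa cells left the localization of MYH10 and MYH9 unaltered. The transcripts of Myo18a, Myh10 and Myh9 are therefore given by mouse. For contralateral tissue, the study also reports lower expression of gene sets for actin binding in HMMRTg/Tg mice, and those sets were not examined here. Myo18a was read at 135, 130 and 113 RPM in control mice and at 101, 94.7, 105 and 105 RPM in HMMRTg/Tg mice. Every HMMRTg/Tg value lay below every control value, and the nearest pair was control mouse 3 and HMMRTg/Tg mouse 11. Limma gave a log2 fold change of -0.30 (SE 0.17, adjusted p = 0.603), with a 95% interval of -0.67 to 0.07. Over 18 alternatives it ranged from -0.44 to -0.25, and the unadjusted p was under 0.05 in 1 of them. The gene lies at chr11:77763240-77865988 of GRCm38.p6.

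The nonmuscle myosin II heavy chains form the motor of the contractile cortex, and all 3 isoforms were read in every mouse. Myh9 encodes the heavy chain of myosin IIA, which drives cortical tension and the cleavage furrow. It was read at 442, 278 and 361 RPM in control mice and at 351, 313, 398 and 362 RPM in HMMRTg/Tg mice. The HMMRTg/Tg mice lay inside the control range. Myh9 had a log2 fold change of 0.005 (SE 0.20, limma adjusted p = 0.996), and its 95% interval of -0.44 to 0.45 corresponds to a ratio between 0.735 and 1.37. Its sign turned in 8 of 18 alternatives, over a range of -0.17 to 0.19. The gene lies at chr15:77760585-77842175 of GRCm38.p6.

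Myh10, the heavy chain of myosin IIB, was read at 45.2, 52.0 and 29.1 RPM in control mice and at 57.8, 53.4, 55.9 and 52.2 RPM in HMMRTg/Tg mice. The groups did not overlap, but control mouse 2 and HMMRTg/Tg mouse 11 almost met. On the log2 scale the difference was 0.41 (SE 0.23, limma adjusted p = 0.603), and 0.17 without control mouse 3. Control mice varied more than HMMRTg/Tg mice, with coefficients of variation of 27.9% and 4.55%. Myh10 lies at chr11:68691915-68816626 of GRCm38.p6. Myh14, the heavy chain of myosin IIC, known from apical junctions of epithelia, averaged 10.5 ± 2.53 RPM in control mice (SD, n = 3) against 15.6 ± 4.75 RPM (SD, n = 4), with overlap, and its log2 fold change was 0.51 (limma adjusted p = 0.651). Reads of heavy chain paralogs could be shared, although each gene has its own amplicon.

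Myl12a encodes a regulatory light chain of nonmuscle myosin II, whose phosphorylation switches the motor on. Its transcript was read at 921, 597 and 724 RPM in control mice and at 831, 857, 943 and 778 RPM in HMMRTg/Tg mice, with overlap. The fitted log2 difference was 0.21 (SE 0.21, limma adjusted p = 0.788). Myl12a is close in sequence to Myl12b, and reads of the pair may not be separable. Phosphorylation was not measured.

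**Figure D3:**
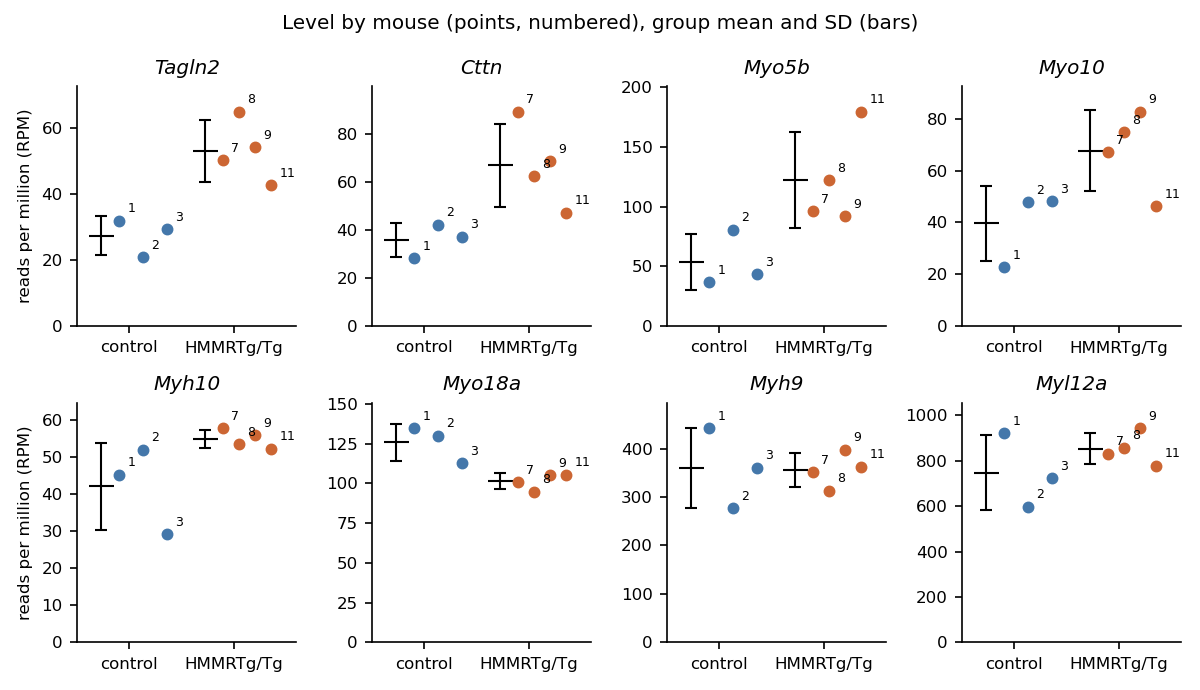
Level in each numbered mouse (RPM, linear axes from 0) of 8 genes in control mice (blue) and HMMRTg/Tg mice (orange), with the group mean as a dash and the SD as bars to the left of the points. Tagln2, Cttn and Myo5b separate the genotypes upward, Myo10 overlaps through mouse 11, Myh10 and Myo18a separate narrowly, and Myh9 and Myl12a overlap.

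Among the 27 tested genes of the group, Tagln2 had the lowest unadjusted p of those with a positive log2 fold change. Its product, transgelin 2, is an actin cross-linker of the cell cortex and of the immune synapse. Tagln2 was read at 32.0, 20.9 and 29.5 RPM in control mice and at 50.3, 65.1, 54.3 and 42.7 RPM in HMMRTg/Tg mice. The lowest HMMRTg/Tg value, in mouse 11, lay above the highest control value, in mouse 1. The log2 fold change of Tagln2 was 0.93 (SE 0.24, 95% interval 0.41 to 1.45, unadjusted p = 0.00237, limma adjusted p = 0.209), a ratio of 1.91. Smooth muscle and myoepithelium markers (Acta2, Myh11, Cnn1, Myl9, Krt5, Krt14, Trp63 and Oxtr) summed to 803 to 912 RPM in the controls against 903 to 1461 RPM in the others, with overlap, and their part in the Tagln2 values was not tested. Tagln2 lies at chr1:172500246-172507375 of GRCm38.p6, and its promoter is the one printed above with 3 GC boxes.

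Cttn encodes cortactin, which stabilises branched actin at the cortex, at invadopodia and on endosomes. It was read at 28.2, 42.2 and 37.2 RPM in control mice and at 89.1, 62.3, 68.5 and 47.2 RPM in HMMRTg/Tg mice. All HMMRTg/Tg mice were above all control mice, with mouse 11 closest to them. Limma gave a log2 fold change of 0.86 (SE 0.25, 95% interval 0.30 to 1.42, unadjusted p = 0.00600, adjusted p = 0.275), a ratio of 1.82. The unadjusted p was under 0.05 in all 18 alternatives for Tagln2 (0.00202 to 0.0119) and for Cttn (0.00231 to 0.0268), and the adjusted p in none of them, from 0.0892 (Cttn in DESeq2) upward. Cttn lies at chr7:144435724-144471560 of GRCm38.p6.

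Class V myosins walk along actin with vesicles as cargo, and their 3 members had a median log2 fold change of 0.60. Myo5b, which works with Rab11 in apical recycling and is needed for the polarity of gut epithelium, was read at 36.7, 80.6 and 43.6 RPM in control mice and at 96.4, 122, 92.1 and 180 RPM in HMMRTg/Tg mice. Mouse 11 was the highest and control mouse 2 stood close under the HMMRTg/Tg mice, without overlap. On the log2 scale the difference was 1.21 (SE 0.31, 95% interval 0.52 to 1.89, unadjusted p = 0.00272, limma adjusted p = 0.225), a ratio of 2.31. It passed the adjusted threshold when control mouse 2 was left out (log2 fold change 1.54, adjusted p = 0.0444) and in none of the other 17 alternatives, where the adjusted p was 0.118 to 0.505. Myo5b lies at chr18:74442364-74772698 of GRCm38.p6.

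Myo5a, the melanosome and dendrite motor of the class, was read at 89.1, 48.8 and 111 RPM in control mice and at 103, 78.9, 129 and 70.1 RPM in HMMRTg/Tg mice. The groups overlapped, and its log2 fold change was 0.24 (limma adjusted p = 0.836). Myo5c, a motor of secretory granules in gland epithelium, averaged 54.3 ± 18.8 RPM in control mice (SD, n = 3) against 82.0 ± 21.2 RPM (SD, n = 4), with overlap. The fitted log2 difference was 0.60 (unadjusted p = 0.0605, limma adjusted p = 0.537). As a share of the reads of the 3 class V amplicons, which depends on their efficiencies, Myo5b made up 21.9%, 39.2% and 21.9% in control mice and 32.6%, 43.2%, 33.7% and 51.6% in HMMRTg/Tg mice. The groups overlapped in this share through control mouse 2.

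Luminal epithelium markers, beside which epithelial myosins can be read, did not separate the genotypes as a list. Their mean log2(RPM + 1) was 6.57 ± 0.37 for control mice (SD, n = 3) against 6.79 ± 0.17 (SD, n = 4), with p = 0.343 in a two-sided exact permutation test. At an unadjusted p under 0.05, 3 of the 12 markers were higher (Epcam, Cldn3 and Elf5) and 1 was lower (Prlr) in limma. Over all genes tested, these shares were 6.49% and 3.22%. Their log2 fold changes were 0.78, 0.99, 0.84 and -1.03, in this order. Epcam and Cldn3 lay higher in every HMMRTg/Tg mouse than in every control mouse, and Prlr lay lower. Such a lack of overlap was seen for 6.52% of all genes tested upward and 3.34% downward. With this mean as a covariate, the log2 fold change was 0.95 for Myo5b (unadjusted p = 0.0109), 0.73 for Cttn (unadjusted p = 0.0233) and 1.02 for Tagln2 (unadjusted p = 0.00323). That of Myo10 was 0.63 (unadjusted p = 0.0823). The covariate averages markers that moved in opposite directions, so it cannot remove a difference in the amount or kind of epithelium. The part of epithelial cells in these values was not tested.

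Among myosins with MyTH4 and FERM domains in the tail, Myo10 carries cargo to filopodial tips. It was read at 22.8, 47.7 and 48.3 RPM in control mice and at 67.0, 74.9, 82.7 and 46.3 RPM in HMMRTg/Tg mice. Mice 7, 8 and 9 were above all control mice, and mouse 11 lay among them. The log2 fold change of Myo10 was 0.80 (SE 0.30, unadjusted p = 0.0233, limma adjusted p = 0.401). The unadjusted p was 0.110 without control mouse 1, 0.0561 without HMMRTg/Tg mouse 8 and 0.0610 without HMMRTg/Tg mouse 9. Myo7a, a motor of hair cell stereocilia, was read at 3.98, 4.75 and 0.351 RPM in control mice and at 1.54, 6.21, 4.86 and 2.68 RPM in HMMRTg/Tg mice. Its control values spanned from about the level of 3 reads to several RPM, and the groups overlapped (log2 fold change 0.40, limma adjusted p = 0.857).

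Class I myosins are monomeric motors that tether membranes to actin. Their 5 tested genes overlapped between genotypes, with a median log2 fold change of 0.07. Myo1c, which acts in membrane trafficking and tension sensing, was read at 307, 166 and 225 RPM in control mice and at 334, 290, 308 and 269 RPM in HMMRTg/Tg mice. Control mouse 1 lay inside the HMMRTg/Tg range and mice 2 and 3 below it, with a log2 fold change of 0.40 (unadjusted p = 0.0959, limma adjusted p = 0.601). Myo1d, involved in the left-right chirality of epithelia in flies, was read at 159, 129 and 124 RPM in control mice and at 170, 110, 156 and 144 RPM in HMMRTg/Tg mice. Limma gave a log2 fold change of 0.07 with a 95% interval of -0.38 to 0.51 (adjusted p = 0.943). For Myo1e, of endocytosis and podocyte adhesion, the log2 fold change was 0.07, and for Myo1g, of lymphocyte membranes, -0.41 (limma adjusted p = 0.961 and 0.837). Myo1g was highest in control mouse 3 (20.6 RPM). That mouse also had the highest summed T cell markers (165 RPM, against 18.5 to 95.8 RPM in the other mice). Its summed B cell markers were the highest as well (317 RPM, against 7.40 to 301 RPM in the other mice). The part of T and B cells in the Myo1g values was not tested.

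Myo6 is the myosin known to walk toward the minus end of actin filaments, and it acts in endocytosis. It was read at 13.0, 40.6 and 58.4 RPM in control mice and at 57.2, 35.4, 48.8 and 23.4 RPM in HMMRTg/Tg mice. The HMMRTg/Tg mice lay inside the wide control range, and the log2 fold change of 0.30 (SE 0.46, limma adjusted p = 0.874) became -0.31 without control mouse 1. Myo19, which moves mitochondria on actin, was read at 16.1, 21.5 and 16.6 RPM in control mice and at 15.0, 22.3, 15.7 and 20.8 RPM in HMMRTg/Tg mice. On the log2 scale the difference was 0.02 (SE 0.26, limma adjusted p = 0.988), and its sign turned in 9 of 18 alternatives.

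Myo9a and Myo9b carry a GTPase-activating domain in the tail, which turns small GTPases off. Myo9a was read at 26.0, 17.5 and 27.4 RPM in control mice and at 31.8, 16.8, 26.9 and 20.8 RPM in HMMRTg/Tg mice. Myo9b was read at 23.5, 23.3 and 23.97 RPM in control mice and at 23.2, 25.6, 23.1 and 18.2 RPM in HMMRTg/Tg mice. The control values of Myo9b were the closest to each other of all tested genes named here, with a coefficient of variation of 1.48%, and HMMRTg/Tg mouse 11 was the lowest. The log2 fold changes were 0.01 and -0.07 (limma adjusted p = 0.995 and 0.945), and the signs of both turned in at least 1 alternative.

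Small GTPases and the kinases downstream of them switch nonmuscle myosin II on, and the myosin phosphatase switches it off. Rhob, an endosomal small GTPase induced early by stress, was read at 182, 455 and 337 RPM in control mice and at 306, 241, 318 and 263 RPM in HMMRTg/Tg mice. Rhoc, known for its role in cell motility, was read at 11.9, 17.3 and 28.4 RPM in control mice and at 15.9, 24.6, 32.2 and 11.5 RPM in HMMRTg/Tg mice. Both overlapped between genotypes, with log2 fold changes of -0.11 and 0.11 (limma adjusted p = 0.928 and 0.954) whose signs turned in some alternatives.

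Ppp1r12a, the targeting subunit of myosin phosphatase, was read at 140, 106 and 174 RPM in control mice and at 178, 158, 172 and 98.2 RPM in HMMRTg/Tg mice. Rock2, a kinase that phosphorylates the light chain and inhibits that phosphatase, was read at 24.9, 43.7 and 58.5 RPM in control mice and at 60.6, 59.5, 83.1 and 26.9 RPM in HMMRTg/Tg mice. In Rock2, mice 7, 8 and 9 were above all control mice and mouse 11 was near the lowest. The log2 fold changes of Ppp1r12a, Rock2 and its paralog Rock1 were 0.10, 0.41 and 0.37 (limma adjusted p = 0.927, 0.772 and 0.811), with overlap in all 3. Those of Rock2 and Rock1 were 0.08 and 0.10 without control mouse 1.

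**Figure D4:**
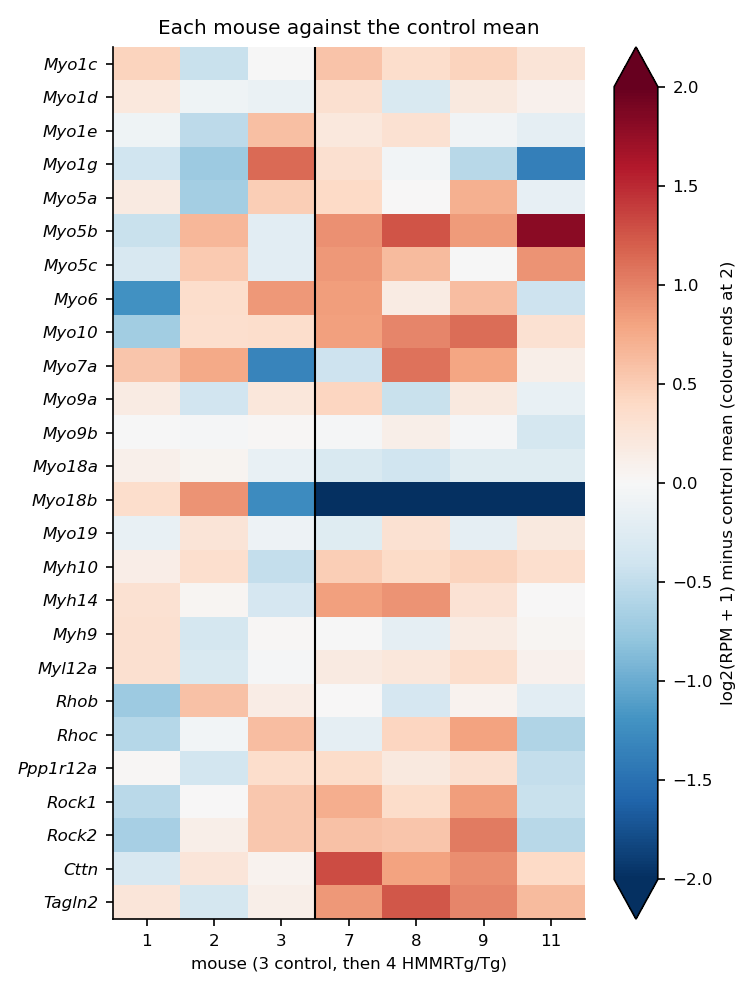
Log2(RPM + 1) of 26 of the 27 tested genes (rows) in each mouse (columns, control mice left of the line) minus the mean of the control mice, with red for higher and blue for lower and the colour ending at 2. Tagln2, Cttn and Myo5b are red in all 4 HMMRTg/Tg mice, Myo18b is dark blue in them, and mouse 11 is blue for Myo6, Rhoc, Rock1 and Rock2, where mouse 9 is red.

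Mice differed in the group as a whole, beyond the genotypes. The median deviation of the 27 genes from the control mean, in log2 units, was 0.39, 0.31 and 0.36 in HMMRTg/Tg mice 7, 8 and 9 and -0.13 in mouse 11. Over all tested genes it was 0.21, 0.10, 0.17 and -0.05 in the same mice. Mouse 9 held the highest value of 7 genes, mouse 7 of 6 and mouse 8 of 5, and control mice 1, 2 and 3 and HMMRTg/Tg mouse 11 the highest of 2 or 3 each. Control mouse 1 held the lowest value of 9 genes. Mice 1 and 11 were also those with the fewest reads (5532357 and 5976449), and for 6 of the 27 genes (22.2%) these 2 mice held both the lowest and the second lowest value, among them Myo6, Myo10, Rhoc, Rock1 and Rock2. This share is close to the 19.8% of all tested genes for which the same held, and the part of depth in these values was not tested.

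Further regulators of myosin II by small GTPases and kinases, outside the 36 genes, were read from a list of 36 further genes, 35 of them tested. The list was written with earlier results of these data known, so its counts and median are description and not an independent test. limma called 0 of them higher and 0 lower at an adjusted p, and 8 were higher and 0 lower at an unadjusted p under 0.05, with a median log2 fold change of 0.28 beside 0.11 over all genes. edgeR called 0 and had 6 higher and 0 lower at an unadjusted p, and DESeq2 called 3 higher (Racgap1, Ect2 and Arhgap35) and had 7 higher and 0 lower at an unadjusted p. Over all genes tested, 6.49% were higher at an unadjusted p in limma, 4.44% in edgeR and 4.56% in DESeq2, and DESeq2 called 0.617% higher at an adjusted p. Arhgap35, which encodes the GTPase-activating protein p190A, averaged 49.97 ± 6.44 RPM in control mice (SD, n = 3) against 88.4 ± 7.38 RPM (SD, n = 4), a log2 fold change of 0.81 (limma adjusted p = 0.136). Limk2, a kinase that inactivates the actin-severing protein cofilin, had 0.69 (limma adjusted p = 0.206).

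Ect2, Racgap1 and Cit, which build and drive the cytokinetic ring, had log2 fold changes of 1.61, 1.57 and 1.13 (limma adjusted p = 0.289, 0.244 and 0.389). Ect2 was read at 2.17, 4.53 and 3.27 RPM in control mice and at 18.8, 18.3, 4.22 and 12.5 RPM in HMMRTg/Tg mice. Mouse 9 lay inside the control range, unlike mice 7, 8 and 11. Markers of dividing cells (4 measured genes) summed to 37.8, 78.6 and 49.5 RPM in the controls and to 196, 235, 66.4 and 140 RPM in HMMRTg/Tg mice, with mouse 9 again inside the control range, and their part in these values was not tested.

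Adaptors and light chains of unconventional myosins, a list of 22 genes with 19 tested, had a median log2 fold change of 0.20. This list, too, was written with earlier results of these data known. limma called 0 at an adjusted p and had 1 higher and 0 lower at an unadjusted p under 0.05, while edgeR and DESeq2 called 0 and each had 0 higher and 1 lower. These counts are near the shares over all genes tested, 6.49% higher in limma and 5.13% and 5.97% lower in edgeR and DESeq2. The gene with the lowest p in limma was Rab11fip5, a Rab11 effector, read at 82.8, 87.9 and 81.2 RPM in control mice and at 89.5, 106, 139 and 143 RPM in HMMRTg/Tg mice. All HMMRTg/Tg mice were above all control mice (log2 fold change 0.48, unadjusted p = 0.0439, limma adjusted p = 0.495). Rab8a and Rab10, GTPases of secretory trafficking, had 0.52 and 0.50, and Lmtk2, a kinase known to bind myosin VI, had 0.53 (limma adjusted p = 0.521, 0.558 and 0.603). Mreg, a melanosome trafficking factor, had -0.72 (limma adjusted p = 0.551) and was the gene lower at an unadjusted p in edgeR and DESeq2.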

How the data were processed

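Paraffin sections of contralateral mammary tissue gave RNA that was sequenced on an Ion Torrent instrument with an AmpliSeq mouse transcriptome panel, and basal processing by the authors used the AmpliSeqRNA plug-in. The deposited values, named TPM by the authors, are RPM. They sum to 1e6 in each mouse, and all values that stand for fewer than 1000 reads are whole multiples of 1 read (100%, tolerance 0.05 reads), from which the reads were recovered. mm10 and Transcriptome Analysis Console are named in the submitters' processing notes, and the aligner is not given in the sources used here. For 27 genes, symbols that had become dates were restored from the amplicon names. Sample labels gave the groups and the mouse numbers.

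Log2(RPM + 1) values were fitted in limma 3.58.1 (R 4.3.3) with genotype as the term and a trended eBayes, for genes of 1 RPM or more in 3 or more mice, and p-values were adjusted over these genes (Benjamini-Hochberg). Alternatives were edgeR 4.0.16 and DESeq2 1.42.0 on the recovered reads (277 genes had no adjusted p in DESeq2), pseudocounts of 0.1 and 10, no filter or one of 5 RPM, TMM factors, quantile normalization, muscle markers left out, no trend, a luminal covariate and each mouse left out in turn, 18 in all. Exact permutation tests used the 35 splits of 7 mice into 3 and 4. The fit was tested on simulated data. Replicate pairs all differed by more than sampling noise, with 25.7 to 129.6 for chi-square over its degrees of freedom. All 36 genes matched RefSeq, with coordinates on GRCm38.p6.

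Values by mouse are given for Myh9, Myh10 and Myo18a, for genes with an unadjusted p under 0.05 or without overlap, and for up to 2 genes of highest mean RPM per role. From each further list, up to 5 genes of lowest p are named. The genes and lists were chosen with earlier results of these data known. Skeletal muscle markers were Acta1, Ckm, Myh1, Myh4, Mylpf, Tnnt3, Tnni2, Atp2a1, Pygm, Ttn, Neb and Actn3. Luminal epithelium markers were Krt8, Krt18, Krt19, Epcam, Cdh1, Elf5, Kit, Esr1, Pgr, Prlr, Cldn3 and Cldn7. Shorter lists marked smooth muscle and myoepithelium, T cells, B cells and dividing cells. 1 of the tested genes is counted but not reported here.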

Additional observations from a re-analysis of the deposited data

How the results depend on the processing

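The limits are those of 3 mice against 4, of 1 amplicon per gene and of RNA from whole sections. No paired analysis was possible because the genotypes share no mouse number. The 0 genes called higher at an adjusted p became 1 (Myo5b) without control mouse 2. The 1 gene called lower, Myo18b, became 0 with a pseudocount of 10, with no filter on low values and with a filter of 5 RPM, where it was not tested, and ranged from 0 to 1 over the mice left out. At an unadjusted p, the 1 gene lower became 0 with the filter of 5 RPM and 2 with quantile normalization, which added Myo18a, and the 4 genes higher ranged from 3 to 6 over the mice left out. The median of the 27 genes, 0.24, was 0.064 in DESeq2 and 0.16 to 0.37 over the mice left out.

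Signs turned for genes whose log2 fold change was small beside its interval, and the cause was not tested. With TMM factors, quantile normalization, edgeR and DESeq2, in this order, the log2 fold change was -0.092, -0.031, -0.13 and -0.15 for Myh9, -0.073, -0.077, -0.063 and -0.082 for Myo19, -0.028, -0.0057, -0.042 and -0.065 for Myo1d, -0.027, -0.035, -0.067 and -0.090 for Myo1e and -0.085, -0.072, -0.084 and -0.11 for Myo9a. It was -0.0024 for Myh9 with the muscle markers left out, -0.12 for Myo19 with the luminal covariate, -0.017 for Ppp1r12a in DESeq2 and -0.0010 for Rhoc with quantile normalization. With 1 mouse left out in turn, the log2 fold change ranged from -0.17 to 0.17 for Myh9, from -0.074 to 0.14 for Myo19, from -0.014 to 0.19 for Myo1d, from -0.19 to 0.36 for Myo1e, from -0.18 to 0.16 for Myo9a, from -0.082 to 0.30 for Ppp1r12a and from -0.17 to 0.42 for Rhoc. The ranges were -0.77 to 0.15 for Myo1g, -0.098 to 0.48 for Myo5a, -0.31 to 0.73 for Myo6, -0.26 to 0.78 for Myo7a, -0.13 to 0.021 for Myo9b and -0.48 to 0.18 for Rhob.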
